A study of Mus musculus with 6 samples.

Results

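The Notch ligand genes Dll1, Dll3, Jag1 and Jag2, the receptor genes Notch1, Notch2 and Notch3 and the fringe genes Lfng, Mfng and Rfng were followed in S-phase cells sorted from the embryonic mouse cortex. These 10 genes were found among the 19988 gene symbols of the array by matching the RefSeq accession of each probe, and they were covered by 15 of the 55681 non-control probes. The 3 Tis21-GFP positive and the 3 Tis21-GFP negative arrays held RNA of S-phase cells, sorted by DNA content and GFP from the dorsal telencephalon of C57BL/6J embryos at embryonic day 14.5. Every embryo, including those that gave the negative cells, carried 1 copy of a GFP knock-in at the Tis21 (Btg2) locus, so that the sort separates cells by the activity of that locus and the negative cells are not of another genotype. A replicate pooled 15 embryos (30 hemispheres, about 200000 sorted cells), and the submitters state that these 3 experiments were chosen out of more. Tis21-GFP is known to mark progenitors that have started to produce neurons, and the series concerns the length of S phase at that step.

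Notch signalling passes between touching cells. A Delta-like or Jagged ligand on one cell pulls on a Notch receptor of its neighbour, the receptor is cut by an Adam protease and by gamma-secretase, and the freed intracellular part enters the nucleus, where it joins Rbpj and Mastermind proteins to switch on Hes and Hey repressors. In the embryonic cortex this circuit is known for lateral inhibition, in which a differentiating cell shows Delta-like ligand and keeps its neighbours as radial glia. Fringes are Golgi glycosyltransferases that extend O-fucose on the receptor and thereby change which ligands it answers to.

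Both Delta-like ligand genes were higher in Tis21-GFP positive cells, 1 Jagged gene and 2 receptor genes were lower, and the fringe genes split, Mfng being higher and Lfng lower. Of the 10 genes, 3 were higher and 4 lower at an adjusted p under 0.05, against 12.9% higher and 13.1% lower among all 13126 genes tested (limma, Benjamini-Hochberg adjustment). That background moves with the scaling, from 1688 higher and 1714 lower as reported to 2341 and 1219 with median centring and to 933 and 2273 with the percentile taken over probes above background on all arrays. The groups did not overlap for 7 of the 10, against 46.8% of all tested genes. Each gene is read from its brightest probe, which was well above background on all 6 arrays for all 10 genes, and a signal is given as a multiple of the array's own 75th percentile or as its log2. Differences are positive minus negative on the log2 scale with the moderated SE (n = 3 per group throughout), and the median difference of all tested genes was 0.12. Relative to that median the differences of Jag1, Jag2, Notch1 and Rfng, given below as measured, are -0.87, -0.45, -0.90 and -0.24. The panels of scaled signal show the members array by array.

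**Figure D1:**
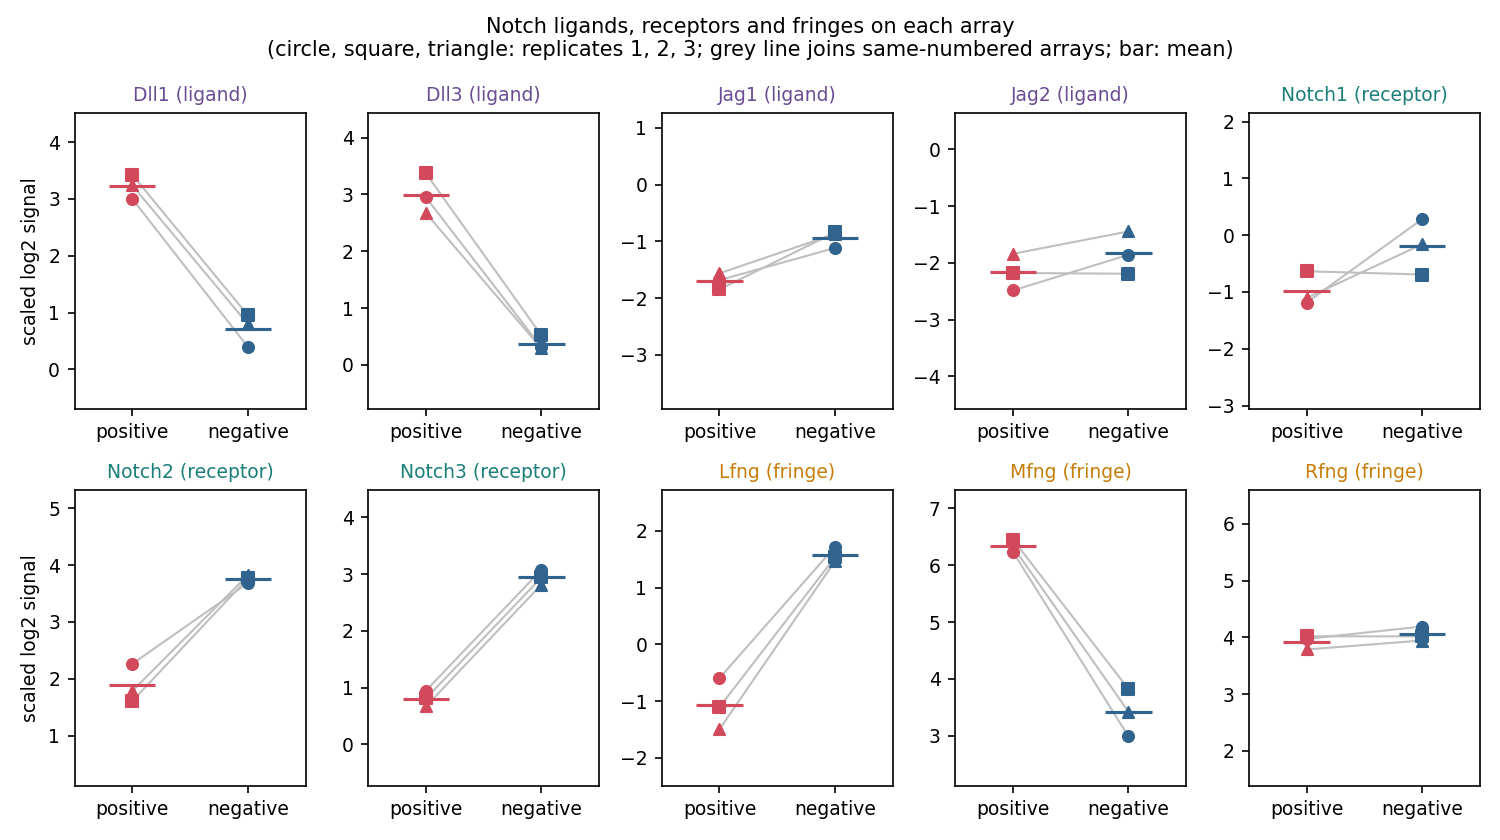
Scaled log2 signal (y axis, log2 of the multiple of the array's 75th percentile, the same span in every panel) of the brightest probe of each gene in Tis21-GFP positive (left) and negative (right) cells, 1 point per array. Dll1, Dll3 and Mfng lie higher on all 3 positive arrays than on any negative array, Jag1, Notch2, Notch3 and Lfng lie lower on all 3, and Jag2, Notch1 and Rfng overlap.

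The promoter windows of the genes that changed by more than 5-fold are shown first, as far as RefSeq (GRCm38.p6) windows were matched, since Dll1 and Dll3 rose together while Lfng fell. Windows were matched for 9 of the 10 genes and run from 250 bases before to 50 bases after an annotated start, 5′ to 3′ on the gene's strand. Capitals mark E-boxes (CANNTG, the hexamer bound by proneural factors) and the core of the Rbpj site (TGGGAA, or TTCCCA on the other strand).
Dll1, first window (chr17:15376883-15377182, minus strand): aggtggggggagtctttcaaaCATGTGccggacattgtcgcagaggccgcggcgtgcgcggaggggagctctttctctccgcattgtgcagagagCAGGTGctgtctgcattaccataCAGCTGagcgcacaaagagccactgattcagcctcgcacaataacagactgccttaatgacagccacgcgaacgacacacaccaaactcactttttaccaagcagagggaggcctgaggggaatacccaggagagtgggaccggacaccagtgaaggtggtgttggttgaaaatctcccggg
Dll1, second window (chr17:15375774-15376073, minus strand): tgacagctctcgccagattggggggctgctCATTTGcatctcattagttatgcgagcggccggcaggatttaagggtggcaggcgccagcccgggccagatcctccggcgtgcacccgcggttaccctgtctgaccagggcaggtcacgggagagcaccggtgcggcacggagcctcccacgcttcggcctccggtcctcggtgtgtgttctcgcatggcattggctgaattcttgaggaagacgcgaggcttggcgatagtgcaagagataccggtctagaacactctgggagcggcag
Dll3 (chr7:28301736-28302035, minus strand): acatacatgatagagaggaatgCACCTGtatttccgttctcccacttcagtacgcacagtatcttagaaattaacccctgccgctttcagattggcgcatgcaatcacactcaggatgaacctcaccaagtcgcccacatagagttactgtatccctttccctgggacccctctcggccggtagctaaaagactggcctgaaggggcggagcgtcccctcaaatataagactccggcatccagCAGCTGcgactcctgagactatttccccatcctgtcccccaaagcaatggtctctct
Lfng (chr5:140607091-140607390, plus strand): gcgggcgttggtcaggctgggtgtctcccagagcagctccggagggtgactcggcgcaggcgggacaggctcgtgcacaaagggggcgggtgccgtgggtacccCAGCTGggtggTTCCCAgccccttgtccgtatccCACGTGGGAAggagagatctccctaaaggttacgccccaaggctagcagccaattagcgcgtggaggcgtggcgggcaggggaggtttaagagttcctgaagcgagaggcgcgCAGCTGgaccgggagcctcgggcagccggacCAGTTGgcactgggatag
Both Delta-like genes held the E-box form CAGCTG, beginning 132 bases before the start in the first Dll1 window and 7 bases before the start in Dll3. Lfng held that form at 2 places, and its E-box CACGTG, 112 bases before the start, overlaps an Rbpj core (TGGGAA) that begins 108 bases before it. A second core of that kind (TTCCCA) began 135 bases before the Lfng start. Over both strands, CANNTG was present in 5 of the 9 member genes against 72.3% of all 32851 windows, CAGCTG in 4 of 9 (Dll1, Dll3, Jag1 and Lfng) against 16.3%, and TGGGAA in 1 of 9 against 25.6%. Of the other motifs looked for, CAGATG was in 0 of 9 against 17.2% and CACGTG in 1 of 9 (Lfng) against 7.15%. The N-box CACNAG was in 6 of 9 against 42.5%. Dll1 counts once over its windows, whereas the shares are per window. The 4 genes with CAGCTG include 2 that were higher and 2 that were lower in positive cells, so these letters do not sort with the direction. A match is a description of the letters and not a measured binding site.

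Among the ligands, Dll1, the Delta-like ligand that activates Notch on neighbouring cells, stood at 7.997, 10.73 and 9.43 times the 75th percentile in Tis21-GFP positive cells and at 1.31, 1.93 and 1.74 times in negative cells. Every positive array lay above every negative one, the lowest positive value being over 4 times the highest negative value. Dll1 rose by a log2 difference of 2.51 ± 0.19 (5.68-fold, adjusted p = 0.000188). Its probe is printed at 10 spots of the array, which were averaged, and the differences within the same-numbered arrays were 2.61, 2.47 and 2.44.

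Dll3 is a divergent Delta-like ligand that is known in mouse mainly from inside the cell that makes it, where it opposes Notch rather than activating it on neighbours. Its brighter probe gave 7.72, 10.3 and 6.37 in positive cells and 1.24, 1.43 and 1.22 in negative cells, with no overlap. The log2 difference was 2.62 ± 0.19 (6.17-fold, adjusted p = 0.000185). Its second probe, dimmer in both groups, gave 3.61, 4.93 and 3.03 in positive cells and 0.632, 0.723 and 0.707 in negative cells. That probe rose by 2.46 ± 0.20 (adjusted p = 0.000603 in the fit over all 28902 tested probes).

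The Jagged genes moved the other way or did not pass. Jag1, a ligand that also acts in vessels and in boundary formation, stood at 0.311, 0.278 and 0.338 in positive cells and at 0.461, 0.557 and 0.547 in negative cells, again without overlap but with groups close together. Jag1 fell by 0.75 ± 0.14 on the log2 scale (1.69-fold lower, adjusted p = 0.00769). Jag2 stood at 0.178, 0.221 and 0.279 in positive cells and at 0.276, 0.219 and 0.367 in negative cells, the groups overlapped, and the difference of -0.34 ± 0.23 did not pass (adjusted p = 0.308, 95% interval -0.88 to 0.20). Both Jagged probes were well above background on all 6 arrays.

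The ligands can be set against each other through the log2 ratio of a pair on each array, which shows unequal change and not a level. The Dll1 to Jag1 ratio changed by 3.26 and the Dll3 to Jag1 ratio by 3.38 between positive and negative cells, and neither ratio overlapped between the groups. The Dll1 to Dll3 ratio moved by -0.12 and overlapped. Over the 12 pairs of members within a role, 8 ratios did not overlap. Each of those 8 pairs holds a member that was itself called, so the count largely restates those calls. The share over pairs of other genes was not computed. The exact two-sided permutation test of 3 against 3 arrays cannot go below 0.10, which each of these 8 reached (0.15 after adjustment over the 12 pairs).

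Among the receptors, Notch2 and Notch3 were lower and Notch1 did not pass. Notch3, which is made by radial glia and, at high level, by the mural cells of vessels, stood at 1.93, 1.75 and 1.59 in positive cells and at 8.44, 7.68 and 7.04 in negative cells. The groups were far apart and tight within themselves. Notch3 fell by 2.14 on the log2 scale (SE 0.14, 4.39-fold lower, adjusted p = 0.000158), and the 3 same-numbered differences were -2.13, -2.13 and -2.14.

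Notch2, a receptor of radial glia, stood at 4.80, 3.05 and 3.45 in positive cells and at 12.9, 13.6 and 14.2 in negative cells. The positive arrays were all lower, with more scatter among them than among the negative ones (SD 0.34 and 0.07 on the log2 scale). Notch2 fell by 1.87 ± 0.18 (3.67-fold lower, adjusted p = 0.000427). Its second probe cleared background on 1 positive array and all 3 negative arrays. It was tested only because of the group where it is high, so its measured difference of -2.01 ± 0.23 is a description and adds no support.

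Notch1, the receptor most studied in cortical radial glia, stood at 0.439, 0.644 and 0.464 in positive cells and at 1.22, 0.619 and 0.894 in negative cells. Replicate 2 is where the groups meet, its same-numbered difference being 0.06 against -1.47 in replicate 1 and -0.94 in replicate 3. The difference of -0.79 ± 0.26 did not pass (adjusted p = 0.0601, 95% interval -1.39 to -0.18). Without Tis21-GFP positive replicate 2 it was -0.96 and without Tis21-GFP negative replicate 2 it was -1.04, and both passed (adjusted p = 0.0499 and adjusted p = 0.0294). The second Notch1 probe, well above background on 1 positive and all 3 negative arrays, stood at 0.0597, 0.0488 and 0.0852 in positive cells and at 0.107, 0.229 and 0.133 in negative cells. It too was tested only because of the negative arrays, so its measured difference of -1.24 ± 0.32 (adjusted p = 0.0356 over all probes) is no support for a fall in Notch1, and its call was lost with the replicate number as a block (adjusted p = 0.0535) and without any 1 array other than Tis21-GFP positive replicate 3 (log2 differences from -1.48 to -0.93). The Notch1 to Notch3 ratio did not overlap between groups and changed by 1.35, whereas the Notch1 to Notch2 ratio (1.09) and the Notch2 to Notch3 ratio (0.26) overlapped.

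The fringe genes showed the widest split of the 3 roles. Mfng (manic fringe), whose product favours signalling from Delta-like over Jagged ligands, stood at 75.3, 87.5 and 80.1 in positive cells and at 7.91, 14.1 and 10.696 in negative cells. The lowest positive value was over 5 times the highest negative value. Mfng rose by 2.93 ± 0.21 (7.61-fold, adjusted p = 0.000185), and 99.9% of all tested genes had a smaller signed difference. Its second probe gave 63.4, 76.96 and 58.1 in positive cells and 5.53, 9.96 and 7.28 in negative cells, a rise of 3.16 ± 0.23 (adjusted p = 0.00053 over all tested probes).

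Lfng (lunatic fringe), which has the same enzymatic activity and a similar ligand preference, went the opposite way. It stood at 0.662, 0.465 and 0.355 in positive cells and at 3.29, 2.90 and 2.76 in negative cells, with no overlap. Lfng fell by 2.64 ± 0.23 (6.22-fold lower, adjusted p = 0.000274), and 0.518% of all tested genes had a more negative difference. The log2 ratio of Lfng to Mfng lay between -7.82 and -6.83 on positive arrays and between -2.29 and -1.27 on negative arrays, a change of -5.57. This was the largest shift among the 12 pairs within a role.

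Rfng (radical fringe), which raises signalling from both ligand families, stood at 15.7, 16.2 and 13.8 in positive cells and at 18.3, 16.2 and 15.4 in negative cells. The groups overlapped and the difference of -0.12 ± 0.14 did not pass (adjusted p = 0.523, 95% interval -0.44 to 0.19). Its second, much dimmer probe differed by 0.16 ± 0.17 (adjusted p = 0.533). Both signs depend on the scaling, since the first was 0.056 with median centring and the second -0.012 with the percentile taken over probes above background on all arrays.

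Across the 15 probes, 5 were higher and 6 lower, against 7.54% and 8.96% of the 28902 tested probes. Of the 6 lower probes, the second ones of Notch1 and Notch2 were tested only through the negative arrays. Of the other genes with 2 probes, Dll3 and Mfng had both called higher, on probes well above background on all arrays, and Rfng had neither called. The plot of every probe shows these pairs side by side.

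**Figure D2:**
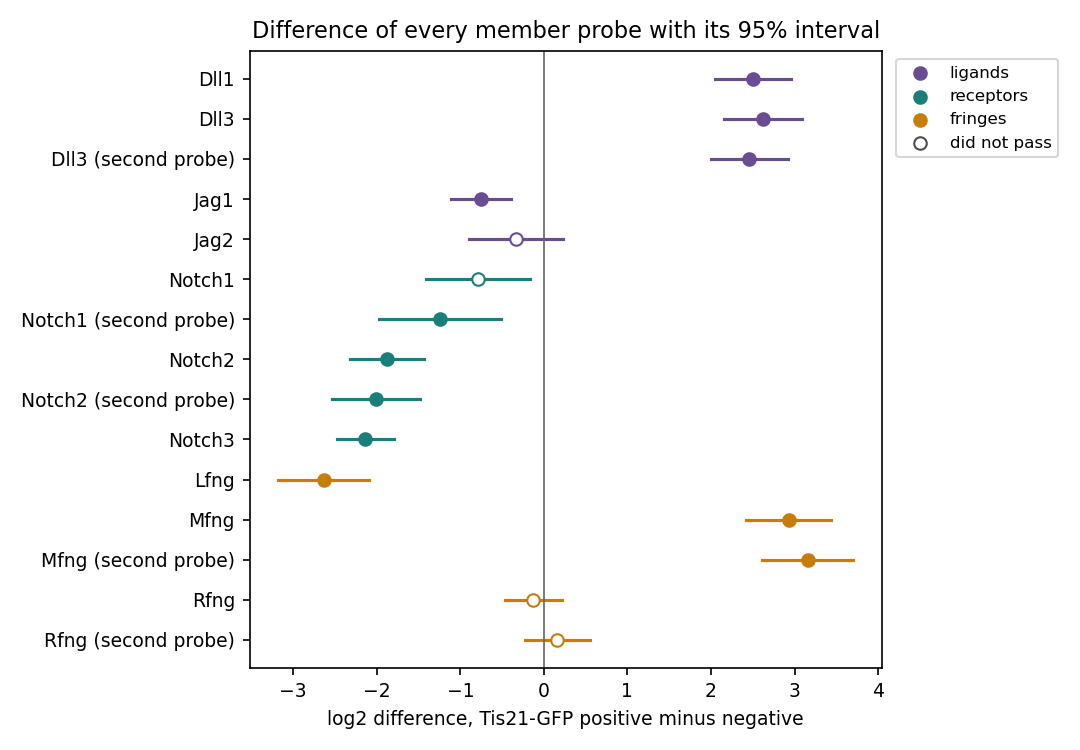
Log2 difference, Tis21-GFP positive minus negative (x axis), of each of the 15 member probes with its moderated 95% interval, in the fit over all tested probes. Filled points passed at an adjusted p under 0.05. For each of the 5 genes with 2 probes, the 2 probes lie within each other's intervals, though of the Notch1 pair only the second probe passed.

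The other genes of the pathway were read from 9 lists by role. Of 57 listed genes, 53 were on the array and 51 were tested, of which 9 were higher and 11 lower, against 12.9% higher and 13.1% lower of all tested genes, with a median difference of 0.02, and 4 of the 9 higher ones were those of the proneural list. Without Tis21-GFP negative replicate 1 the number higher was 5, and without Tis21-GFP negative replicate 3 the number lower was 7. No list's count was tested against that background. Of 4 genes for the endocytosis that arms the ligand, 0 passed in the limma fit and 0 had an unadjusted p under 0.05, the smallest p being that of the ubiquitin ligase gene Neurl1a (-0.31 ± 0.16, adjusted p = 0.171). Of 8 tested protease and gamma-secretase genes, 0 passed in the limma fit and 2 had an unadjusted p under 0.05. The smallest was that of the sheddase gene Adam17 (-0.44 ± 0.18, adjusted p = 0.0971), which passed without Tis21-GFP positive replicate 2 (-0.61). Of 2 tested genes of receptor O-glycosylation, Eogt, which adds O-GlcNAc to receptor repeats, fell by 0.64 ± 0.14 (adjusted p = 0.0139). That call was lost without Tis21-GFP negative replicate 3 (-0.54), with median centring (-0.46) and with normexp background correction (-0.24).

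In the nucleus, 2 of the 8 genes of the activating complex were higher and 1 was lower. Rbpj, the DNA-binding partner of cleaved Notch, rose by 0.69 ± 0.13 (adjusted p = 0.00692), while Maml2, a Mastermind co-activator, fell by 0.95 ± 0.19 (adjusted p = 0.00995). The acetyltransferase gene Kat2b rose by 0.84 ± 0.20 (adjusted p = 0.0169), a call lost when negative replicate 1 (0.85) or negative replicate 2 (0.69) was left out. Of 8 corepressor genes, 2 were higher and 3 lower. The 3 lower ones were of the Groucho family, Tle2 at -1.30 ± 0.21, Tle1 at -0.69 ± 0.15 and Tle3 at -0.50 ± 0.14. With median centring Tle1 (-0.51) and Tle3 (-0.31) did not pass. Ctbp1 rose by 0.51 ± 0.14 (adjusted p = 0.0289). Tle3 did not pass with any 1 of 4 arrays left out (Tis21-GFP positive replicates 1 and 3 and negative replicates 1 and 3, -0.50 to -0.42), nor did Ctbp1 with any 1 array left out other than Tis21-GFP positive replicate 3 (0.42 to 0.52).

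Among 9 genes that restrain or turn over the receptor, 1 was higher and 2 were lower. Numbl, a relative of the endocytic Notch antagonist Numb, rose by 1.33 ± 0.15 (adjusted p = 0.000744). Dtx4, a Deltex ubiquitin ligase, fell by 1.51 ± 0.24 (adjusted p = 0.00308) and Fbxw7, which marks cleaved Notch for destruction, by 0.91 ± 0.16 (adjusted p = 0.0052). These 3 calls were kept under all 16 other settings.

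Of 5 tested direct target genes of Notch, 3 were lower and 0 higher. One of the 3, Hey2, was tested only through the negative arrays, and of the 4 genes above background on all arrays 2 were lower. With median centring the number of targets called lower was 1, that of Hes1. The repressor gene Hes1 fell by 2.18 ± 0.44 (adjusted p = 0.00994), with an SD of 1.02 among the positive arrays against 0.21 among the negative ones. Hes5, the main Notch effector of cortical progenitors, fell by 0.68 ± 0.17 (adjusted p = 0.0223), a call lost when positive replicate 2, negative replicate 2 or negative replicate 3 was left out (-0.65 to -0.57). The Hes5 call was also lost with median centring (-0.50) and with no filter on dim probes. Hey2 did not clear background on any positive array and was at least 1.47-fold lower there (adjusted p = 0.0456 in limma). The bound sets the negative mean over the positive mean. Each positive value was first raised to its array's lowest signal well above background if it lay under it. With normexp correction in limma the Hey2 difference was -0.11 (adjusted p = 0.632). The Hey2 call was lost with any 1 array left out other than Tis21-GFP positive replicate 1 (log2 differences from -0.94 to -0.56).

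Of the other ligands and receptors, 3 were tested, 1 was lower and 0 were higher. Dner, a non-classical Notch ligand of neurons, fell by 0.71 ± 0.21 (adjusted p = 0.0436), and did not pass with any 1 array left out other than Tis21-GFP positive replicate 1 (-0.81 to -0.52). The proneural factors are known to switch on Delta-like genes. All 4 genes of that list were higher in positive cells, among them Neurog2 by 2.48 ± 0.16 (adjusted p = 0.000158), Hes6 by 2.08 ± 0.14 and Neurog1 by 1.72 ± 0.53 (adjusted p = 0.0471). The Neurog1 probe was well above background on 1 negative array and so was tested only through the positive ones, its groups overlapped, and its call was lost with any 1 array left out other than Tis21-GFP negative replicate 2 (1.203 to 1.97).

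**Figure D3:**
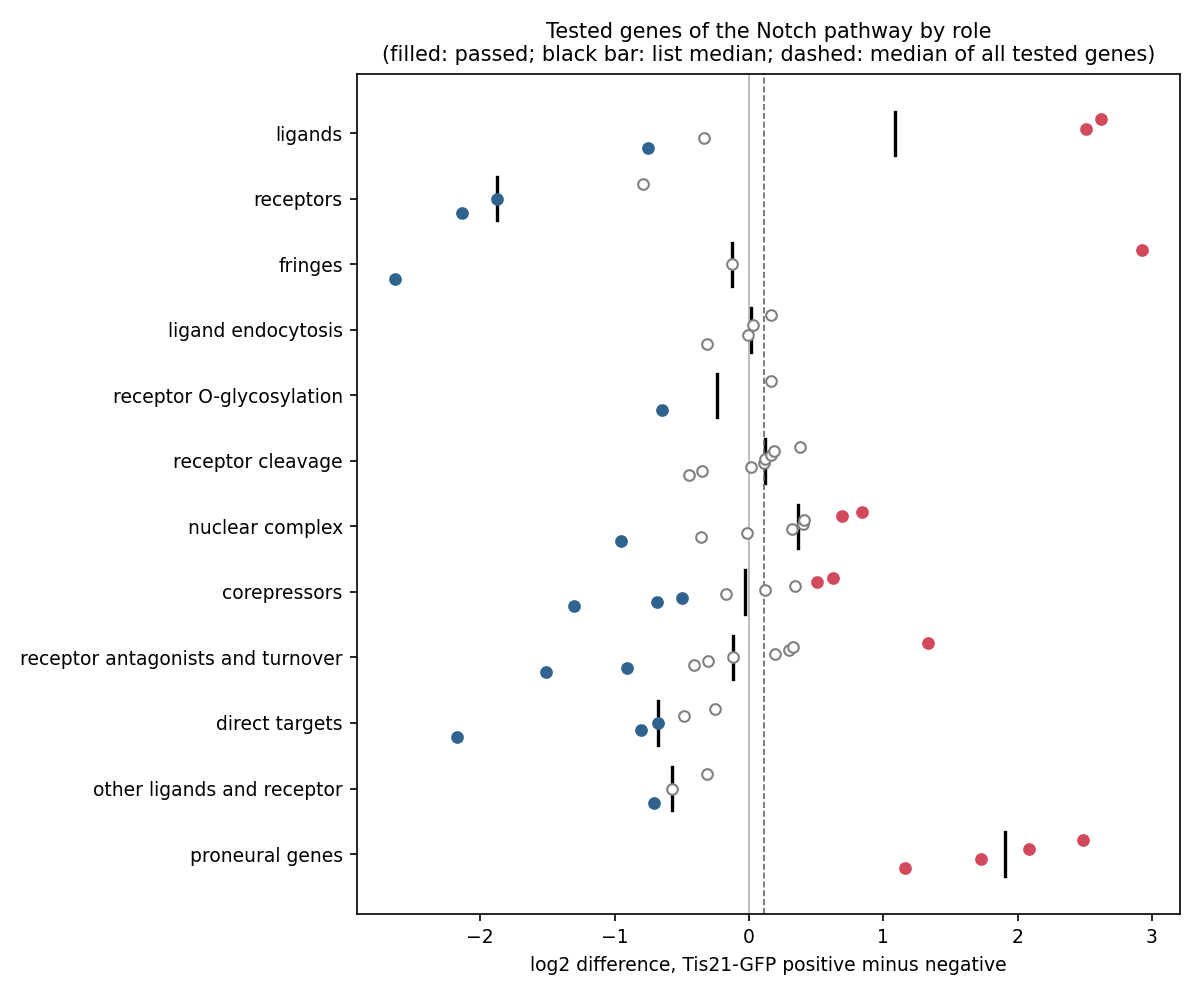
Log2 difference, Tis21-GFP positive minus negative (x axis), of every tested member and other pathway gene by role (rows), 1 point per gene, filled where it passed and with the list's median as a bar. The receptors and direct targets lie left of 0, the proneural genes lie right of it, and the fringes and ligands hold genes on both sides.

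The genes whose signal over the 6 arrays was most like that of a member were found by Pearson correlation, without a test, since 2 groups of arrays give many high values. For Dll1 these were Ska2, Cbfa2t2 and Gadd45g, for Dll3 Pcp4, Lrr1 and Carhsp1, and for Mfng Gcg, Plcxd2 and Kntc1. For Notch2 they were Tmub1, Fabp7 and Ddah1, for Notch3 Clip4, Apoe and Gpx8, for Lfng Aif1, Vill and Sparc, and for Jag1 Kirrel and Cdk18. Gadd45g, a marker of the intermediate progenitor list, differed by 2.31 ± 0.18, and Fabp7, a radial glial lipid-binding protein gene, by -1.35 ± 0.16. Aif1, a microglial gene, differed by -2.44 ± 0.22. Between 260 and 910 of the 12737 genes compared had a correlation above 0.95 with a given member, so a high value is common here.

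Markers of several cell types differed between the sorted groups, and they are given for the whole lists as summed signal in multiples of the 75th percentile. In bulk RNA, fewer cells of a type and less RNA per cell cannot be told apart. Intermediate progenitor markers summed to between 215 and 265 on positive arrays and between 31.5 and 49.6 on negative arrays, all 7 being higher, among them Eomes (3.42 ± 0.24), Insm1 (2.67 ± 0.22) and Neurog2. Of the 7, Btg2 is the locus whose GFP set the sort, and Neurod4 was tested only through the positive arrays. The direction of Btg2 and Neurod4 is therefore no support. Radial glia markers summed to between 147 and 179 on positive arrays and between 289 and 330 on negative arrays, 9 of 11 being lower. Among the lower ones were Ednrb (-2.40 ± 0.24) and Ptprz1 (-2.37 ± 0.23), with Tnc, tested only through the negative arrays, at least 4.15-fold lower. Pax6 (0.02 ± 0.12, adjusted p = 0.936) and Prom1 (0.36 ± 0.14, adjusted p = 0.0919), named after their values were seen, did not pass in limma. Prom1 was higher on every positive array than on any negative array. With median centring 1 radial glia marker was called higher. Neuron markers summed to between 138 and 171 on positive arrays and between 76.6 and 113 on negative arrays, with 5 of 8 higher, such as Rbfox3 (2.16 ± 0.16) and Neurod6 (2.03 ± 0.23), and 3 lower, such as Syt1 (-1.60 ± 0.35). Hes5 stands in both the direct target and the radial glia lists, and Neurog2 in both the proneural and the intermediate progenitor lists.

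Some members are also made by cells other than progenitors. Markers of pericytes and mural cells, the vessel cells in which Notch3 is high, summed to between 0.26 and 0.31 on positive arrays and between 1.54 and 2.73 on negative arrays. Of its 8 markers 6 did not clear background on any positive array. Of the 6 tested, 5 were tested only through the negative arrays, so their direction is no support, and the other, Anpep (named after its value was seen), differed by -2.38. Pdgfrb was at least 8.42-fold lower, Rgs5 at least 7.09-fold and Abcc9 at least 3.84-fold. With normexp correction, which adds an offset of 50 and so shrinks differences of dim probes, their log2 differences were -1.35, -1.34 and -0.79. Markers of endothelial cells, which also make Jag1 and Notch1, summed to between 12.2 and 12.6 on positive arrays and between 8.94 and 10.8 on negative arrays. Most of that sum was Kdr, between 9.17 and 9.95 on positive arrays and between 5.94 and 7.68 on negative arrays, which did not pass (0.45, adjusted p = 0.0528). Without Kdr, named after its value was seen, the sums were 2.69 to 3.00 on positive arrays and 2.73 to 3.12 on negative arrays. Of 6 tested, 2 were lower and 0 higher, Esam at -1.54 ± 0.19 and Cldn5 at -0.93 ± 0.28, and Cldn5 did not pass with any 1 array left out other than Tis21-GFP positive replicate 1 (-1.06 to -0.65). Flt1 (-0.76 ± 0.39), tested only through the negative arrays, did not pass, except without Tis21-GFP positive replicate 3 (-1.23). Tie1, Tek and Emcn, named after their values were seen, did not clear background on any array of either group.

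Microglia markers summed to between 23.7 and 29.4 on positive arrays and between 41.5 and 46.5 on negative arrays, 8 of 9 tested being lower. Among the lower ones were Cx3cr1 (-3.09 ± 0.57), Trem2 (-2.83 ± 0.26) and C1qc (-2.57 ± 0.29). Cx3cr1 was above background on 2 positive arrays and so was tested only through the negative arrays, and its direction is no support. Of the 8 microglia markers above background on all arrays 7 were lower. Most of the microglia sum was Itgam, which did not pass (-0.40, adjusted p = 0.104), and the other markers summed to between 3.94 and 7.35 on positive arrays and between 12.8 and 16.8 on negative arrays. Meningeal and mesenchymal markers summed to between 12.3 and 19.6 on positive arrays and between 37.5 and 41.9 on negative arrays, a sum that was mostly Fn1. Without Fn1 (named, like Itgam, after its value was seen), the sums were 0.651 to 0.943 on positive arrays and 4.68 to 9.31 on negative arrays. Of 9 tested markers 5 were tested only through the negative arrays, and the other 4 were all lower. Col3a1 was at least 16.6-fold lower and Lum at least 4.32-fold lower, while Nid1, above background on 1 positive array, had a measured difference of -3.53 ± 0.47. Of 6 interneuron markers 1 was called lower, Gad1 (-1.91 ± 0.31), which did not pass with normexp correction (-0.51). Gad1 was above background on 1 positive array and so was tested only through the negative arrays, and its direction is no support. Of the 5 interneuron markers above background on all arrays, 0 were called lower and 0 higher. Among these, Lhx6 (-0.51 ± 0.21) and Dlx5 (0.34 ± 0.29) did not pass, and Lhx6 passed without Tis21-GFP negative replicate 2 (-0.73). The summed radial glia, pericyte, microglia and mesenchymal levels were lower on every positive array than on any negative array, as were Notch2, Notch3, Lfng and Jag1, while the summed interneuron level overlapped. The summed intermediate progenitor, neuron and endothelial levels were higher, as were Dll1, Dll3 and Mfng, but the endothelial level overlapped without Kdr. The part of other cell types in the differences of the members was not tested.

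Btg2, the gene that carries the GFP knock-in, stood at 2.51, 3.57 and 3.18 in positive cells and at 1.59, 1.88 and 1.92 in negative cells, without overlap. All 6 arrays came from 1 slide, with 28519 to 29273 probes well above background on positive arrays and 29312 to 31274 on negative arrays. The labels give separate experiments for the replicates, and the number of arrays limits the precision.

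**Figure D4:**
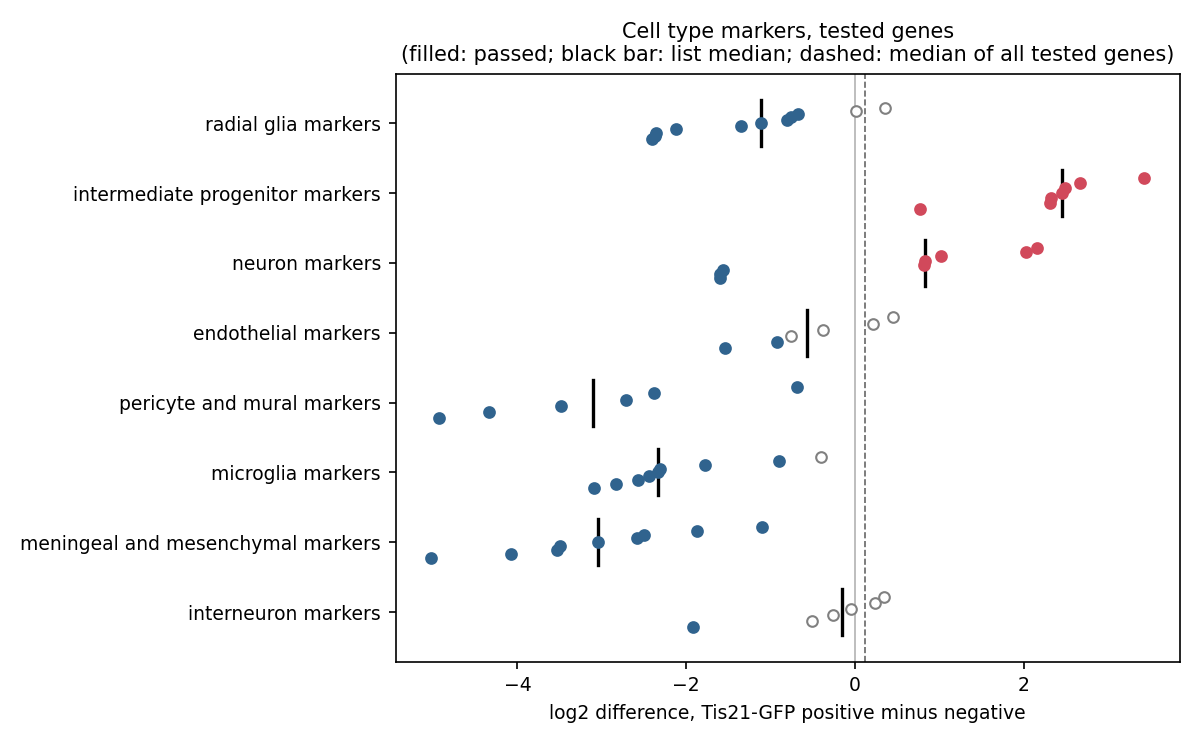
Log2 difference, Tis21-GFP positive minus negative (x axis), of the tested markers of each cell type (rows), 1 point per gene, filled where it passed and with the list's median as a bar. All 7 intermediate progenitor markers lie right of 0, and all 6 pericyte, 9 mesenchymal and 9 tested microglia markers lie left of it, of which 5, 5 and 1 were tested only through the negative arrays. Of the 7, 1 (Neurod4) was tested only through the positive arrays, and Btg2 is the gene of the GFP knock-in.

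The calls of the members were stable across the processing except for Notch1. Over 16 other settings, Dll1 ranged from 2.33 to 2.69, Dll3 from 2.37 to 2.80, Mfng from 2.68 to 3.13, Jag1 from -0.93 to -0.44, Notch2 from -2.06 to -1.69, Notch3 from -2.31 to -1.95 and Lfng from -2.87 to -2.23, and each passed in all 16. Notch1 ranged from -1.04 to -0.55 and passed in 6. Of those 6, 1 was the mean of a gene's probes (-1.01). That mean takes in the second Notch1 probe, tested only through the negative arrays, so this pass is no support. The mean of the Notch2 probes takes in such a probe too. Jag2 and Rfng passed in none of them, with ranges of -0.52 to -0.14 and -0.38 to 0.06.

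**Figure D5:**
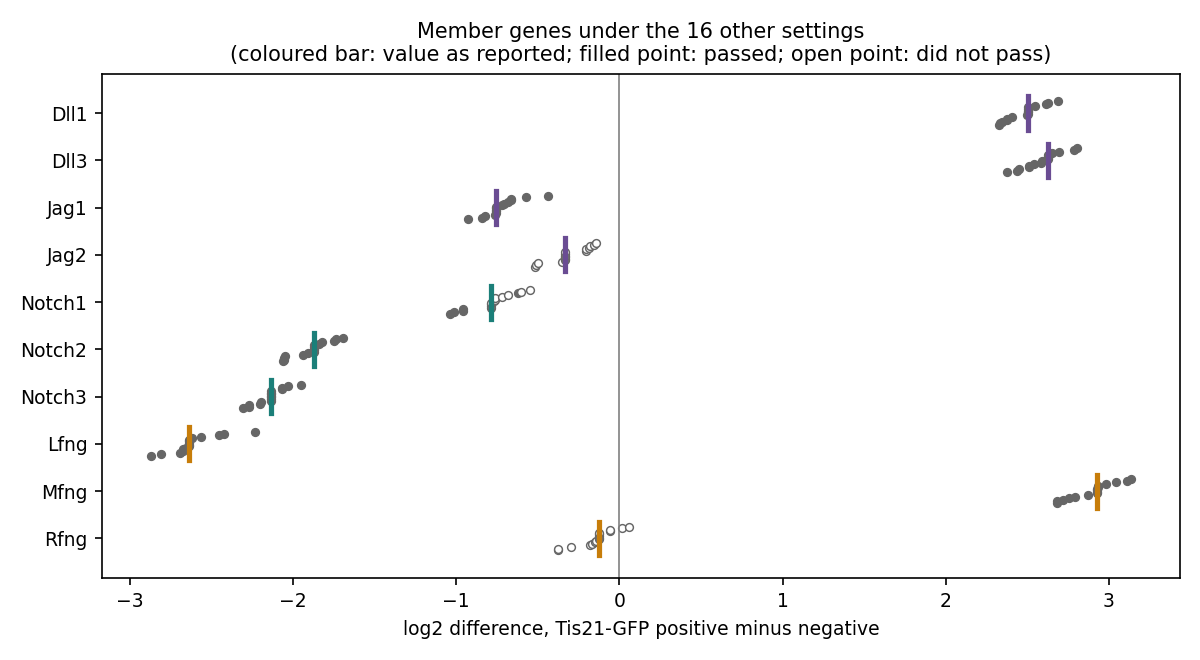
Log2 difference, Tis21-GFP positive minus negative (x axis), of each member gene (rows) as reported (coloured bar) and under 16 other settings (points, filled where the gene passed). The points of Dll1, Dll3 and Mfng stay above 2.3, those of Lfng below -2.2, and Notch1 has both filled and open points.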

How the data were processed

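RNA of 6 sorted cell pools was labelled with Cy3 from 50 ng per pool and hybridised to 1-colour Agilent arrays, all on 1 slide and from 1 scan. Per the file headers, the deposited scanner files hold intensity per spot as written by Agilent's Feature Extraction software (10.7.1.1), background-subtracted and detrended but not scaled between arrays. The flags for outliers and for signal well above background are other values of the same files, written by that software. A second deposited table, the authors' own processed values, is on the log2 scale with equal quantiles, whose correlation with the log2 processed intensity was 0.999 or above. Its scale and lack of centring were read from the values, and the sources used here do not give how it was made.

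Control spots and marked outlier spots were left out, log2 values of repeated spots were averaged, and the 75th percentile of each array's non-control probes was taken off (213 to 340 intensity units). Per array 51.2% to 56.2% of probes cleared the background flag, 0 spots were saturated, and 0 pairs of files were identical. A probe was tested when well above background on all 3 arrays of a group. Probes were named through RefSeq accessions (GRCm38.p6; 26370 of 55681 matched), and a gene was read from its brightest probe. The comparison used limma 3.58.1 (R 4.3.3) with group as the only term, and the script was tested on simulated data. The number of arrays limits the precision.

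Of the named genes, the text gives every member, up to 4 called genes of each pathway list (or the 1 with the smallest p where none was called), the 3 largest differences of each marker list, and the 3 genes most correlated with each called member. The values of 2 genes that this rule picks are not reported here. An "at least" fold is given for a probe that cleared background on no array of its dimmer group. It sets the mean of the brighter arrays over that of the dimmer arrays, after raising each dim value to the array's lowest signal well above background if it lay under it. Members, lists and settings were chosen with earlier results of these data known. Both groups carry replicate numbers 1 to 3, and deviations from the group means correlated at 0.23, 0.13 and 0.37 between same-numbered arrays, so these were treated as pairs in an alternative fit. The alternatives include normexp on the median spot signal, since the mean signal was not used here. Slide and scan were shared by all arrays.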

Additional observations from a re-analysis of the deposited data

How the results depend on the processing

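The 16 other settings were 4 other scalings or background corrections of the scanner signal, the authors' processed values, no filter on dim probes, a replicate block, the array row as a block, a variance trend with a robust fit, the mean of a gene's probes, and each of the 6 arrays left out. The number of member genes that were higher stayed at 3 in all of them, and the number lower was 4 or 5. With the replicate number as a block, the only call that changed among the member genes, their second probes and the genes named from the pathway and marker lists by the rule was that of the second Notch1 probe (-1.24, adjusted p = 0.0535). Rfng turned to 0.056 with median centring and to 0.019 with the mean of its probes, and its second probe to -0.012 with the 75th percentile over probes above background on all arrays. That last scaling put the median of all tested genes at -0.058, against 0.12 as reported and 0.30 with median centring. The ratios of the 12 member pairs kept their direction in all 60 recomputations. The number of all tested genes that were higher was 1688, against 933 under that scaling, 1124 under the processed values of the authors, 897 with dim probes kept, 2341 when medians were centred and 762 to 1731 with 1 array left out, the lowest when negative replicate 1 was dropped. It was 778 when negative replicate 3 was dropped and 1057 when positive replicate 1 was. The number lower was 1714, against 1219 with median centring, 2273 with the percentile over probes above background on all arrays, and 1174 to 1703 with 1 array left out. Of the other pathway genes, 9 were higher and 11 lower as reported. Those numbers were 5 higher with the 75th percentile over probes above background on all arrays, 5 lower with median centring, and 5 to 8 higher and 7 to 10 lower with 1 array left out. Signals near background, as of the second probes of Notch1 and Notch2, limit what those probes show, and under normexp correction they stood at -0.32 and -0.63. The 3 pericyte markers named by the rule stood at -1.35 to -0.79 under it. The causes of these shifts were not tested.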

Other observations

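Pathway genes that the filter left out of the tests had weak signals. The vascular ligand gene Dll4 was well above background on 1 positive array and on 0 negative arrays, with a mean scaled log2 signal of -4.04 ± 0.20 in positive cells and -5.19 ± 0.34 in negative cells (SD, n = 3 each). The target gene Heyl was well above background on 0 positive arrays and 2 negative arrays, with means of -5.80 ± 0.48 in positive cells and -3.62 ± 0.59 in negative cells.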
